A study of Mus musculus with 45 samples.

Results

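The RAS-ERK cascade carries growth factor signals from receptor tyrosine kinases at the cell surface to transcription factors in the nucleus, and 55 of its genes are described here in CIC CUT&RUN data from the mouse cerebellum. Of the 21938 protein-coding genes of GENCODE M21 on GRCm38, these 55 were taken by name to cover 10 steps of the pathway, from the receptors down to the immediate early genes that the cascade switches on. A gene was called bound in a peak list when a CIC summit, the position of highest signal in a peak or sub-peak, lay in its gene body or within 5 kb upstream. The genes were taken by name and not by a threshold on these data. The names were, however, chosen with earlier results of the same data known.

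The series holds 45 samples, which are 15 mice each profiled with 3 antibodies, and the CIC libraries came from 4 wild-type (WT) mice, 4 Atxn1 154Q/2Q mice (154Q), 3 Atxn1 154Q[V591A;S602D]/2Q mice and 4 Engrailed1-Cre;Cic fl/fl mice (CIC KO). All were 10-week-old C57BL/6 animals, and nuclei came from whole frozen cerebellum. The 154Q mice carry 1 knock-in allele of Atxn1 with the expanded CAG repeat that models spinocerebellar ataxia type 1, and the 154Q[V591A;S602D] allele adds a pair of substitutions in the AXH domain, the part of ATXN1 that contacts CIC. The other 30 samples (H3K27ac and IgG) were not analysed here. Libraries of a genotype were merged before peaks were called, so each of the 3 deposited lists (WT, 154Q and 154Q[V591A;S602D]) is a single observation with no spread between mice, and no difference between lists can be tested. All 3 lists were called against the same merged CIC KO libraries, in which Cic is lost only from cells of the Engrailed1 lineage. The lists hold no expression values, so the labelled tissue could not be checked against marker genes.

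CIC is an HMG-box repressor that sits on short octamers near its target genes. In the classical circuit, active ERK phosphorylates CIC and relieves repression, and the best known CIC targets are the genes that feed back on RAS-ERK signalling (Sprouty, Spred and dual-specificity phosphatase genes) and the Etv factors. Immediate early genes such as Fos and Egr1 are transcribed within minutes of ERK activation, through serum response factor (SRF) on CArG boxes and its ELK1 partner.

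The lists differ in length. On assembled chromosomes WT had 5998 summits (4588 peaks), 154Q had 2079 (1690 peaks) and 154Q[V591A;S602D] had 1100 (918 peaks). Repeat-rich peaks had been removed from the 154Q list alone. The pileup, the number of merged fragments over a summit, had a median of 30 at WT summits and 27 at those of 154Q[V591A;S602D], with minima of 19 and 18, so a weaker site was not detectable at this depth. Total fragments per library are not in the lists, and the 154Q list holds neither pileup nor fold enrichment. A longer list reaches more genes of any kind, and each count of members is therefore set beside the share of all protein-coding genes in the same list.

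In the WT list 22 of the 55 genes (40%) had a peak, against 16.4% of all protein-coding genes. The 154Q list held 10 of them (18.2%, against 6.96%), and the list of the 154Q[V591A;S602D] mice held 3 (5.45%, against 3.77%). The WT and 154Q shares lay above those of all genes, and the share in the shortest list, where 1 of the 3 calls was the weak one of Jun, was near it. With each list reduced to its 918 best peaks, the length of the shortest, the shares were 14.5% of members against 4.36% of all genes in WT, 7.27% against 4.22% in 154Q and, unaltered, 5.45% against 3.77% in the third, so that the mutant lists then held 4 and 3 members. Fos and Egr1 were the 2 members bound in all 3 lists (3.64%, against 2.37% of all genes). A further 12 members (21.8%, against 9.86% of all genes) were bound in WT alone, and 7 in WT and 154Q (12.7%, against 3.28%), namely Fgfr2, Igf1r, Grb2, Rras, Shoc2, Rps6ka2 and Srf. Jun was bound in WT and 154Q[V591A;S602D] (1.82%, against 0.839%) and Nf1 in 154Q alone (1.82%, against 1.22%), and 32 members had no peak in any list (58.2%, against 81.9%).

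Most bound members had a promoter summit, as had most bound genes in general. Counting only summits within 1 kb of an annotated transcript start left 17 (30.9%), 7 (12.7%) and 3 (5.45%) members in the lists of WT, 154Q and 154Q[V591A;S602D], against 11.7%, 4.88% and 2.82% of all genes. Over all genes this rule called 2577, 1070 and 618, beside 3588, 1526 and 827 by the main rule. Strong peaks were few. A summit with a −log10 q of at least 10 was present at Fos, Egr1, Jun and Rasa1 in WT, where 3.96% of all genes had one. The 154Q list had one at Fos, Egr1 and Nf1, against 1.29% of all genes, and that of 154Q[V591A;S602D] had one at Fos, against 0.383%. All of these strong summits lay near a start site, and all but those of Rasa1 and Nf1 belonged to immediate early genes.

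**Figure D1:**
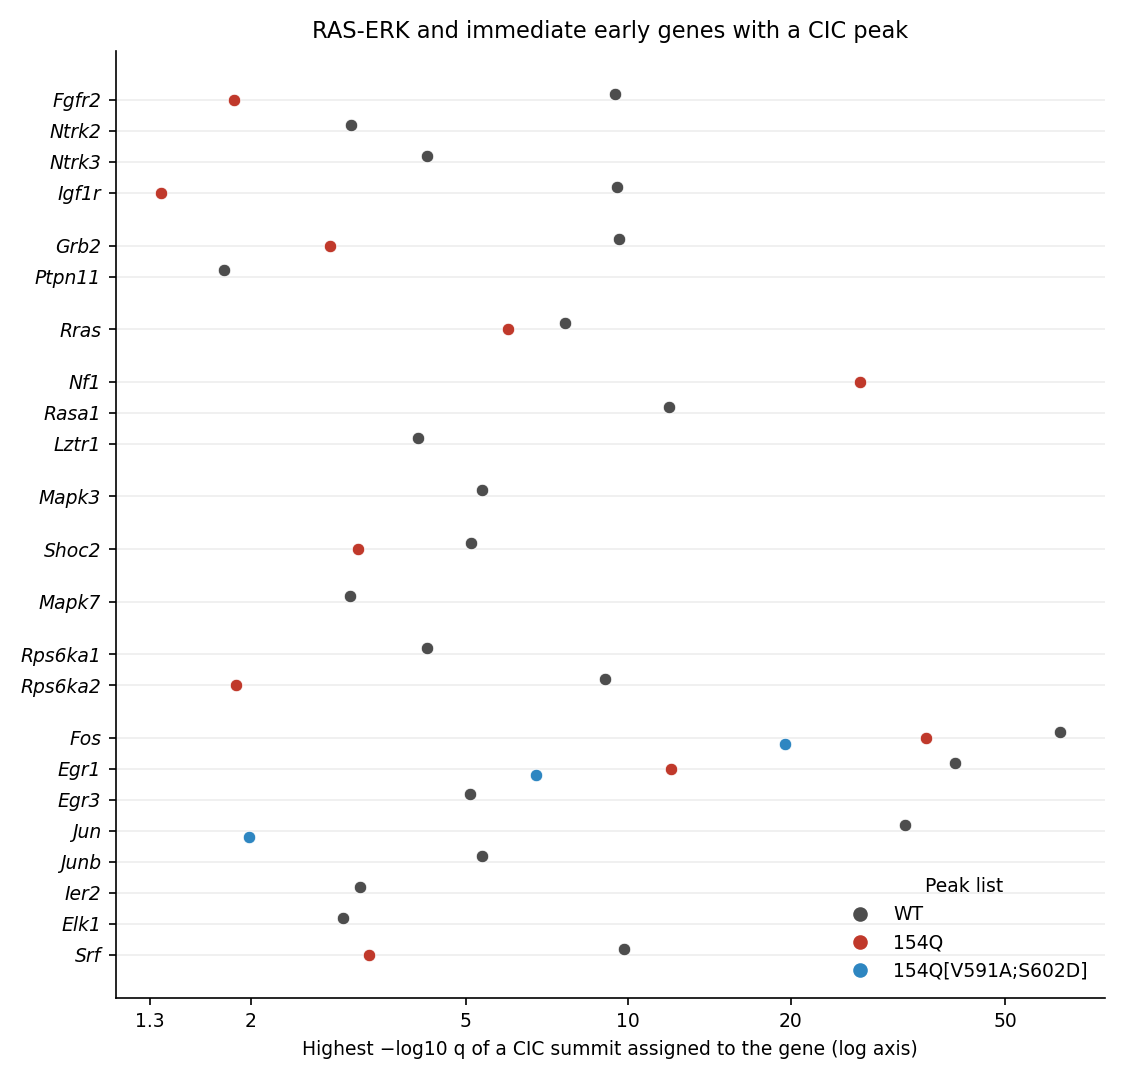
Highest −log10 q (log axis) of the CIC summits assigned to each of the 23 members with a peak, in pathway order from receptors at the top to immediate early genes and their activators at the bottom. Each point is 1 merged peak list (WT grey, 154Q red, 154Q[V591A;S602D] blue) and has no replicate error. Of the 23 genes, blue points occur only at Fos, Egr1 and Jun, and Nf1 has a 154Q point alone.

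The plot of the highest −log10 q per gene shows where along the pathway the peaks lay. Among the 10 immediate early genes and their activators, 8 (80%) were bound in WT, against 16.4% of all genes, and 3 (30%) in either list of the mutant mice, against 6.96% in 154Q and 3.77% in 154Q[V591A;S602D]. Among the 45 genes of the cascade above them, WT had 14 (31.1%) bound and 154Q had 7 (15.6%). The 154Q[V591A;S602D] list held none of the 45, against 3.77% of all genes, a share at which few of 45 genes would be bound. The 12 other immediate early genes, which are not members and include the ELK1 relatives Elk3 and Elk4, had shares of 33.3%, 25% and 16.7% in the 3 lists. The WT share was close to that of the 45 cascade genes. Elk3 was among those bound in WT and in 154Q[V591A;S602D]. With each list reduced to 918 peaks, WT had 4 of the 10 immediate early members bound, 154Q had 2 and 154Q[V591A;S602D] had 3. Of the 45 cascade genes WT then kept Fgfr2, Igf1r, Grb2 and Rasa1 (8.89%, against 4.36% of all genes) and 154Q kept Rras and Nf1 (4.44%, against 4.22%), so that the cascade share in 154Q was near that of all genes.

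The windows that carry the results at Fos, Srf, Rasa1, Nf1 and Jun are shown next because they are the strongest member summits outside Egr1 or hold a motif letter for letter. Each is the 101 bases centred on a summit, read from GRCm38.p6 (RefSeq) 5′ to 3′ on the strand of the gene. Capitals mark either a CIC octamer (TCAATGAA, TCAATGGA, TGAATGAA or TGAATGGA, on either strand) or a CArG box, and windows without capitals held neither. The order is the WT summit in the Fos intron at chr12:85474576-85474676, the 154Q summit upstream of Fos at chr12:85473580-85473680, the 154Q summit of Srf at chr17:46556174-46556274, the weak and the strong WT summits of Rasa1 at chr13:85289780-85289880 and chr13:85289469-85289569, the 154Q summit of Nf1 at chr11:79339523-79339623 and the WT summit of Jun at chr4:95052310-95052410.
Fos intron, WT: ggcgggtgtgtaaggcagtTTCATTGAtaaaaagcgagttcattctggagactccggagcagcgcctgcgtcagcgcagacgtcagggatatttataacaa
Fos upstream, 154Q: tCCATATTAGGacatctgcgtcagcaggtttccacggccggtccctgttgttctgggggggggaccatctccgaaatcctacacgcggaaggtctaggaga
Srf promoter, 154Q: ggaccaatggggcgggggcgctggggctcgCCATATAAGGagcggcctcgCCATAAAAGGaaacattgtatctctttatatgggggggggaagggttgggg
Rasa1 weak summit, WT: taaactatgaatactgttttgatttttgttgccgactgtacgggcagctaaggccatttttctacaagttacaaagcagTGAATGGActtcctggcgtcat
Rasa1 strong summit, WT: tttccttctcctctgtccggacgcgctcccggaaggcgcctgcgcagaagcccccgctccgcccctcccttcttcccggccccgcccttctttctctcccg
Nf1 promoter, 154Q: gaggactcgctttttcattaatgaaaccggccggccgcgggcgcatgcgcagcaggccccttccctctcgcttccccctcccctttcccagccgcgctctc
Jun promoter, WT: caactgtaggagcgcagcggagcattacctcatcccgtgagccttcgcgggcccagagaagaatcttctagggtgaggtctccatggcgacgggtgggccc

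Fos encodes the AP-1 subunit c-Fos and is the textbook immediate early gene. It had the strongest member summit in each of the 3 lists. In WT that summit lay inside the gene, in an intron 736 bp downstream of the start, with a −log10 q of 63.1 and rank 42 among the 4588 WT peaks. The same position was marked in 154Q, 745 bp downstream with a −log10 q of 35.7 and rank 68 of 1690, and in 154Q[V591A;S602D], 739 bp downstream with a −log10 q of 19.5 and rank 40 of 918. The 3 summits spanned 9 bp, and the octamer TCAATGAA at chr12:85474595-85474602, which reads on the minus strand and is the capitalised stretch of the Fos intron window, lay within 50 bp of each.

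The Fos promoter carried a separate group of summits. In WT they lay 89 bp (−log10 q 31.5), 254 bp (29.2), 475 bp (4.84) and 559 bp (6.12) upstream of the start. In 154Q they lay 82 bp (28.1), 260 bp (19.6) and 826 bp (7.14) upstream, and a further summit 613 bp downstream had a −log10 q of 6.23. In 154Q[V591A;S602D] the promoter summits lay 100 bp (11) and 241 bp (16.1) upstream. Both summits nearest the start thus had a counterpart in every list, whereas those farther upstream were present in 1 list each. Another octamer, TGAATGGA at chr12:85473840-85473847, fell in the windows of the summits nearest the start in WT and 154Q. The 154Q[V591A;S602D] window there ended at its first base. TGAATGAA lay at the 154Q summit 826 bp upstream, and a CArG box lay 44 bp from the 154Q summit 260 bp upstream. The WT window 254 bp upstream began inside that box. Which list holds a match thus depends here on the window edge.

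Fold enrichment over the CIC KO background, which the caller gives as the pileup plus 1 over the background plus 1, could be read in WT and 154Q[V591A;S602D]. At the Fos intron summit 150 fragments lay over a background of 23.4 in WT, a fold enrichment of 6.19 (95% exact Poisson interval 5.24 to 7.26). In 154Q[V591A;S602D] 76 fragments lay over 17.7, a fold enrichment of 4.11 (3.25 to 5.13). The intervals did not overlap. They cover counting error of the pileup alone, not the background and not the difference between mice. At the promoter the summits 254 and 241 bp upstream gave 6.03 (4.73 to 7.57) in WT and 5.34 (3.95 to 7.07) in 154Q[V591A;S602D], and those nearest the start gave 6.42 (5.05 to 8.05) and 4.56 (3.29 to 6.17), so at both the intervals overlapped.

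Egr1, a zinc-finger immediate early factor of the EGR family, was the other gene bound in every list. Its GENCODE body begins at an upstream start, and distances are given here from the internal start nearest its strongest summit, so that the summits named here as upstream lie in an untranslated exon of the longer transcript. In WT 8 summits in 3 peaks were assigned to it, the strongest 155 bp upstream of the internal start with a −log10 q of 40.3, rank 81 and a fold enrichment of 8.27, and the next 352 bp upstream with a −log10 q of 34.4. The other 6 had a −log10 q of 1.36 to 7.56. In 154Q the same base 155 bp upstream was a summit with a −log10 q of 12 and rank 239, beside summits 203 bp (8.06) and 357 bp (11.1) upstream. In 154Q[V591A;S602D] the summits lay 351 bp (6.74, rank 169) and 201 bp (2.15) upstream and 451 bp downstream (1.53). The summits 351 to 357 bp upstream of the internal start differed by at most 6 bp between the lists, and in all 3 lists CArG boxes lay within 50 bp of them. No CIC octamer lay within 50 bp of any Egr1 summit.

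At Egr1 the fold enrichment of the summit 352 bp upstream was 5.54 (4.48 to 6.78) in WT and 3.31 (2.41 to 4.45) 1 bp away in 154Q[V591A;S602D], and that of the nearer pair, 46 bp apart, was 8.27 (6.53 to 10.3) and 3.03 (1.95 to 4.52). Neither pair of intervals overlapped. All 5 member summit pairs within 100 bp of each other were thus lower in 154Q[V591A;S602D], with a median ratio of 0.664. Over all 633 such pairs in the genome the median ratio was 0.841 and 72.7% were lower, so the direction at Fos and Egr1 was that of most shared sites. The 5 pairs belong to 2 genes and are not replicates of each other.

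Jun, which encodes the AP-1 partner of c-Fos, was bound in WT at its promoter, with a summit 138 bp upstream of a −log10 q of 32.6 (rank 115), a pileup of 135 fragments (113 to 160) and a fold enrichment of 3.77. Further WT summits lay 308, 484 and 1062 bp upstream with a −log10 q of 2.82, 2.21 and 6.93. In 154Q[V591A;S602D] Jun had 1 summit, 696 bp downstream in an untranslated exon, with a −log10 q of 1.98, rank 655 of 918 and a pileup of 19 fragments (11.4 to 29.7). The closest WT and 154Q[V591A;S602D] summits lay 834 bp apart. The lists thus shared the gene but not the site, and 154Q had no summit at Jun.

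Srf encodes the factor that reads CArG boxes, and it was bound in WT 93 bp upstream of its start (−log10 q 9.82, rank 852, fold enrichment 2.56) and in 154Q 49 bp upstream (3.31, rank 944). The summits lay 44 bp apart, and both CArG boxes of the Srf window printed above fell in the 154Q window, the farther one from the start in the WT window too. Elk1, which encodes the ETS partner of SRF, had a WT summit 18 bp upstream (2.96) that was assigned to its neighbour Uxt as well. Egr3 had WT summits 2311 bp (5.09) and 393 bp (1.37) upstream, each with a CArG box within 50 bp. Junb had 5 WT summits between 1249 bp upstream and 1945 bp downstream, the highest 60 bp upstream with a −log10 q of 5.37. Ier2 had 1 WT summit 2254 bp upstream (3.18). Fosl2 and Myc had none in any list.

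**Figure D2:**
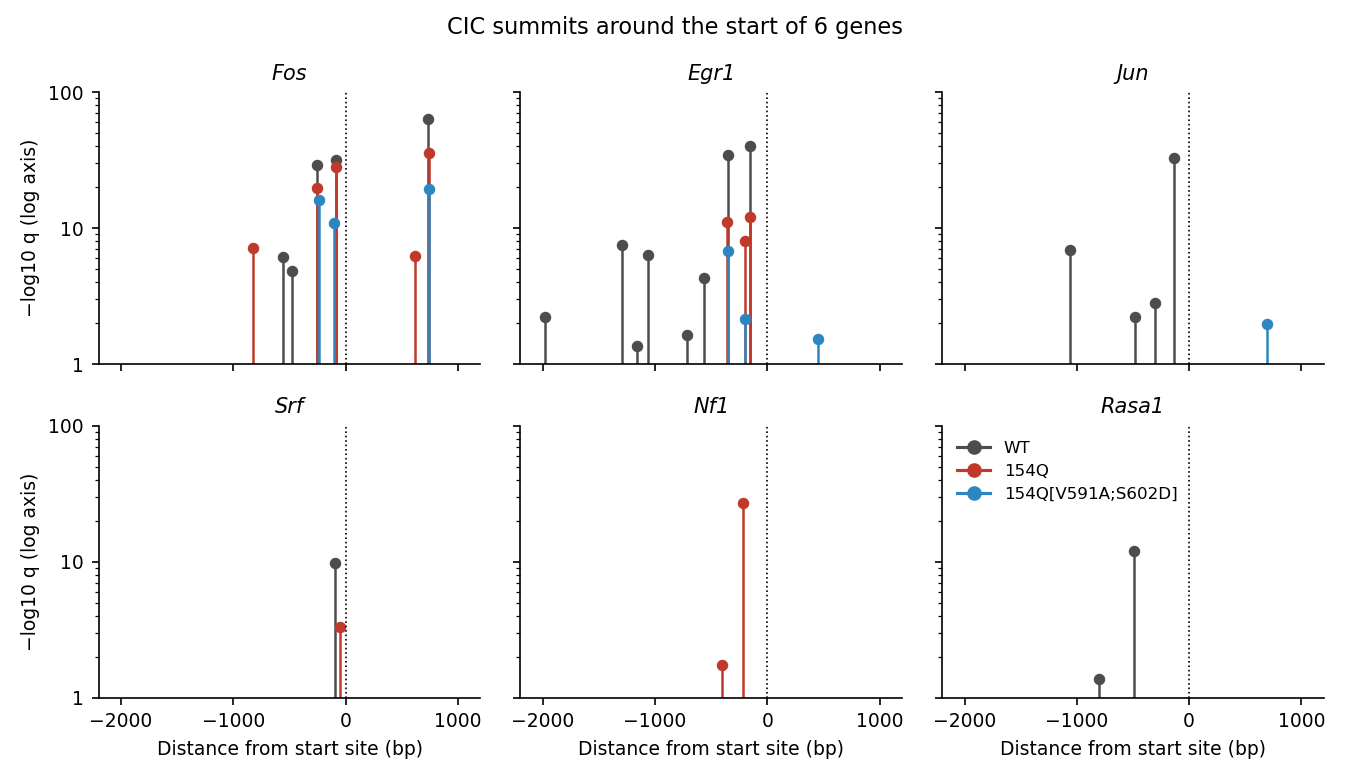
−log10 q (log axis) of every CIC summit assigned to 6 members against its distance in bp from the start site nearest the strongest summit of the gene (dotted line, upstream to the left). Each stem is 1 summit of a merged list (WT grey, 154Q red, 154Q[V591A;S602D] blue). At Fos the tallest stem of each list is the intronic one, at Egr1 it lies 155 bp upstream in WT and 154Q but 351 bp upstream in 154Q[V591A;S602D], Jun has its 154Q[V591A;S602D] stem on the other side of the start from its WT stems, and Nf1 and Rasa1 each carry stems of 1 list.

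The plot of summits around the start sites also shows the brakes on RAS, the GTPase-activating proteins that return RAS to its inactive state. Nf1, which encodes neurofibromin, was the only member bound in 154Q and not in WT. Its 154Q summit lay 219 bp upstream of the start at position 79339573 of chromosome 11, with a −log10 q of 26.9 and rank 87 of 1690, and a weaker one lay 406 bp upstream (1.75). Neither the WT nor the 154Q[V591A;S602D] list held a summit in its 242 kb gene body or upstream region, and no octamer or CArG box lay within 50 bp of the 154Q summit. Of all protein-coding genes, 267 (1.22%) were likewise bound in 154Q alone. Rasa1, which encodes p120 RasGAP, showed the opposite pattern. It was bound in WT alone, 490 bp upstream (11.9, rank 641, fold enrichment 4.98, 37 fragments) and more weakly 801 bp upstream (1.37, 19 fragments), where the octamer TGAATGGA lay 32 bp from the summit. Lztr1, an adaptor for RAS degradation, had a WT summit 38 bp upstream (4.08). Rasa2 and Rasal2 had no peak.

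At the top of the pathway, 4 of 11 receptor tyrosine kinase genes (36.4%) were bound in WT, against 16.4% of all genes, and 2 (18.2%) in 154Q, against 6.96%. All 4 are longer than 150 kb, a class in which 28.7% of all genes were bound in WT. Within 1 kb of a start site, 1 of the 11 (9.09%) was bound in WT, against 11.7% of all genes. In 154Q none was, against 4.88%. Fgfr2, counted in both lists, had no summit in its RefSeq body. Igf1r, the insulin-like growth factor receptor, had its strongest WT summit deep in an intron, 176378 bp downstream of the start (9.55, rank 877, 137 fragments, fold enrichment 2.04), with weaker ones 176592 and 179838 bp downstream (3.41 and 2.38) and 915 bp upstream (2.99). Its single 154Q summit lay 66 bp from the intronic one and was weak (1.36, rank 1673 of 1690). The neurotrophin receptors Ntrk2 and Ntrk3 were bound in WT alone, inside introns 59231 bp or more from a start, with highest −log10 q of 3.07 and 4.23. Egfr, Erbb2, Erbb3, Erbb4, Fgfr1, Fgfr3 and Kit had no peak.

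The call at Fgfr2 rests on its gene model. The GENCODE body includes a transcript that spans 2961 kb and covers many other genes, whereas the RefSeq body spans 104 kb. All 13 WT summits and both 154Q summits assigned to Fgfr2 lay outside the RefSeq body, most of them in other genes such as Fam53b, Tacc2 and Bub3, with a highest −log10 q of 9.47 (rank 886) at position 130715567 of chromosome 7 in WT and 1.86 (rank 1285) at position 130838089 in 154Q. With RefSeq gene models, an alternative added after seeing the data, WT had 21 bound members (16.1% of all genes bound), 154Q had 9 (6.87%) and 154Q[V591A;S602D] had 3 (3.78%).

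Among adaptors, Grb2, which links receptors to SOS, had WT summits 138 bp (5.46) and 497 bp (2.21) upstream and a stronger one 49323 bp downstream in an intron (9.63, rank 868, fold enrichment 4.09). The 154Q list had both sites, 68 bp upstream (1.52) and 49431 bp downstream in a coding exon (2.8, rank 1025). Ptpn11, the gene of the phosphatase SHP2, had 1 weak WT summit in an untranslated exon (1.78, 20 fragments). Gab1, Gab2, Shc1 and Shc2 had none. The 5 exchange factors that load RAS with GTP (Sos1, Sos2, Rasgrp1, Rasgrf1 and Rasgrf2) had no peak in any list, as 81.9% of all genes did not.

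Of the RAS GTPase genes only Rras was bound. Its 4 WT summits (highest −log10 q 7.64, rank 1161, fold enrichment 4.05, 2036 bp upstream, the others 4.11 at 202 bp, 2.5 at 811 bp and 2.57 at 2224 bp) and its 154Q summit (5.99, rank 539, 2082 bp upstream) were all assigned to the neighbour Scaf1 too, and the strongest in each list lay nearer the Scaf1 start, at 438 and 484 bp. Hras, Nras, Rras2 and Mras had no peak. Of the RAF, MEK and ERK kinases Mapk3, the gene of ERK1, was bound, in WT alone, 336 bp upstream (5.37, 27 fragments) and 70 bp from an alternative start (2.68). Araf, Braf, Map2k1 and Map2k2 had no peak.

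The scaffold gene Shoc2, whose product assists RAF activation, was bound in WT 5 bp upstream of its start (5.12, rank 1789, fold enrichment 2.79) and in 154Q 173 bp upstream (1.52) and 252 bp downstream (3.16, rank 970), in a promoter shared with Bbip1. Ksr1 and Ksr2 had no peak. In the MEK5-ERK5 branch Mapk7, which encodes ERK5, had WT summits 100 bp (2.59) and 4279 bp (3.05) downstream, and Map2k5 had none. Of the RSK kinases, which ERK activates, Rps6ka2 was bound in WT 62 bp upstream (9.05, rank 946, 148 fragments, fold enrichment 1.95) and 223 bp upstream (7.44), and in 154Q 104 bp upstream (1.88, rank 1283). Rps6ka1 had 3 WT summits, the highest with a −log10 q of 4.23, and Rps6ka3 had none. The large pileups at low fold enrichment at Rps6ka2 and in the Igf1r intron stood over a high CIC KO background.

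Where WT and 154Q shared a member, WT had the higher −log10 q in all 9 cases. These include Fgfr2, whose closest summits in the 2 lists lay 122522 bp apart. Over the 1240 protein-coding genes bound in both lists 154Q was higher in 27.2%, and among the 11 feedback genes bound in both it was higher in 8. The −log10 q also moves with depth, and the depths of the lists were not compared. The 154Q list holds 40.9% of the members bound in WT, and the WT list holds 90% of those bound in 154Q, against 34.6% and 81.3% for all genes. The positions agreed to 100 bp or better at 7 of the 9 shared members, against 79.2% of the shared genes.

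**Figure D3:**
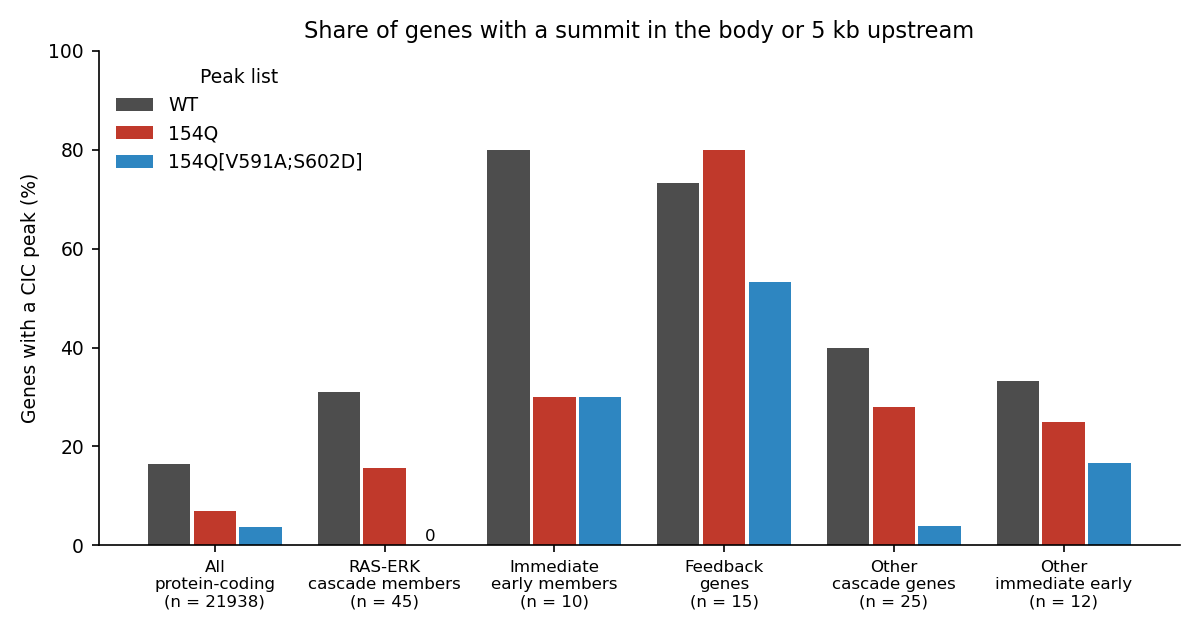
Percent of genes with a CIC summit in the gene body or 5 kb upstream, for all 21938 protein-coding genes, the 45 cascade members, the 10 immediate early members, and 3 groups of further pathway genes. Bars are single merged lists (WT grey, 154Q red, 154Q[V591A;S602D] blue) with no replicate error. The feedback genes have the tallest 154Q and 154Q[V591A;S602D] bars. The cascade members have no 154Q[V591A;S602D] bar, where that of all genes stands at 3.77%.

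The bars of shares by group set the members beside 52 other pathway genes. Beside the all-gene shares of 16.4%, 6.96% and 3.77%, the counts were as follows. Of 15 feedback genes WT had 11 (73.3%) bound, 154Q had 12 (80%) and 154Q[V591A;S602D] had 8 (53.3%). Of 25 other cascade genes 10 (40%), 7 (28%) and 1 (4%) were bound, the last near the share of all genes, and of 12 other immediate early genes 4, 3 and 2. At start sites the other cascade shares were 12%, 16% and 4%, against 11.7%, 4.88% and 2.82% of all genes. At equal list length the counts were 8, 10 and 8 for feedback genes, 1, 4 and 1 for other cascade genes and 2, 3 and 2 for other immediate early genes. The shares of all genes were then 4.36%, 4.22% and 3.77%. Other cascade genes in WT and 154Q[V591A;S602D] (4% each) were thus near the share of all genes. Bound in all 3 lists were the feedback genes Spry4, Spred1, Spred2, Dusp4, Dusp5, Etv1, Etv4 and Etv5, the kinase gene Rps6ka5 (MSK1) and Fosb. Etv5 stood at rank 3 of the WT list and rank 4 of the 154Q list, above all members. Fosb, the paralog of Fos, had a −log10 q of 28.9, 7.3 and 7.05. The adaptor genes Shc3 and Shc4, singled out after their values were seen, had a −log10 q of 72.7 and 58.1 in 154Q against 6.98 and 5.86 in WT, whereas the members Shc1 and Shc2 had no peak in either.

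**Figure D4:**
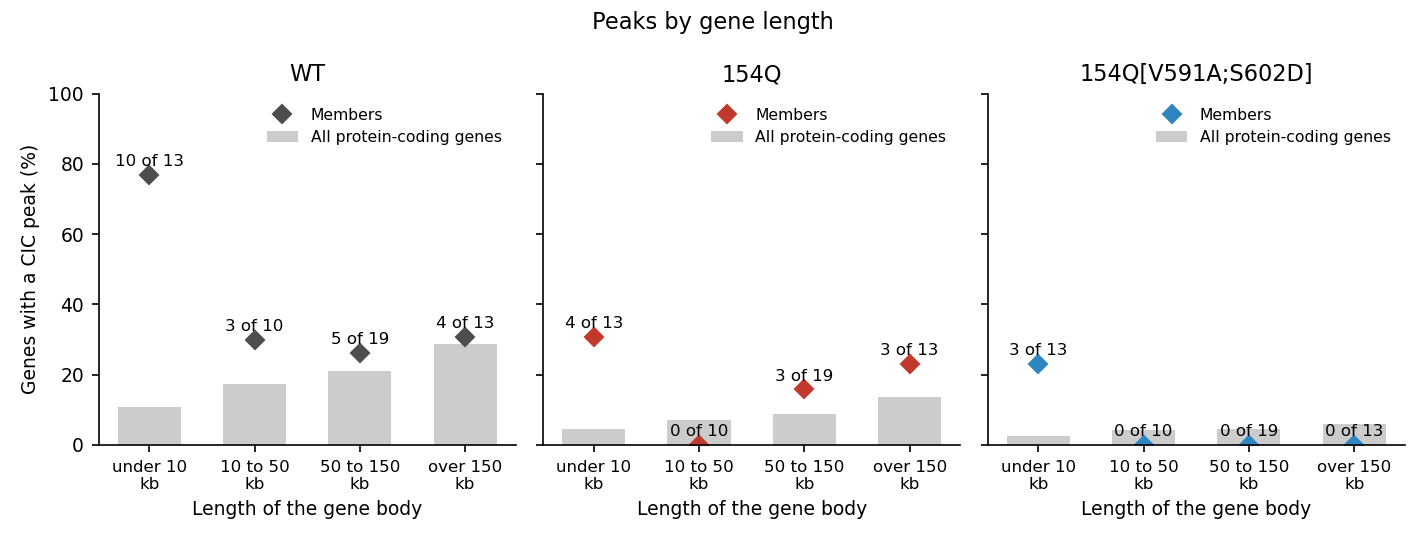
Percent of genes with a CIC peak by length of the gene body, for all protein-coding genes (grey bars) and members (diamonds, with their counts), in 3 merged lists. In WT 10 of 13 members shorter than 10 kb have a peak, and the gap between diamond and bar is smaller in the longer classes (30% against 17.3% between 10 and 50 kb). In 154Q[V591A;S602D] the diamonds of the 3 longer classes are at 0, beside low bars of 4.11%, 4.42% and 6.09%.

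A long gene body offers more room for a summit, and the members are long, with a median of 63 kb against 17.4 kb for all genes. The immediate early members are short (median 5.07 kb) and the rest are long (81.8 kb). As the plot by gene length shows, 76.9% of the 13 members under 10 kb were bound in WT against 10.7% of all genes of that length. Between 10 and 50 kb the shares were 30% and 17.3%, between 50 and 150 kb 26.3% and 21.1%, and over 150 kb 30.8% and 28.7%. The excess of members over all genes in WT was thus largest among the short genes, where 7 of the 10 bound members are immediate early genes or their activators and the others are Rras, Mapk3 and Mapk7.

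Letter matches to motifs were sparse. A CIC octamer lay within 50 bp of 3 of 69 member summits in WT (4.35%), 3 of the 20 of 154Q (15%) and 1 of the 7 of 154Q[V591A;S602D] (14.3%), against 2.28%, 6.16% and 3.27% of all summits. Every one of them was at Fos but the 1 at Rasa1. CArG boxes lay at 4 WT (5.8%), 3 154Q (15%) and 1 154Q[V591A;S602D] (14.3%) member summits, against 0.6%, 1.11% and 0.909% of all summits, at Fos, Egr1, Egr3 and Srf. The cyclic AMP response element TGACGTCA lay at no member summit. The GC box GGGCGG lay at 11 of 69, 4 of 20 and 2 of 7, against 23%, 26% and 28.8% of all summits. Summits of 1 gene share sequence, and a match is a string of letters, not a measured site.

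Few calls lay near the edge of the gene rule. The farthest upstream summit of a member was that of Egr3 at 2311 bp, well inside the 5 kb limit, and the calls of Ier2 in WT (2254 bp) and of Rras in 154Q (2082 bp) each rested on 1 upstream summit more than 1 kb from the start. Outside the rule were the 154Q summit 735 bp downstream of Shc1, which lies at the start of Pygo2, and the WT summit 2444 bp downstream of Map2k2, at the start of Zbtb7a. Erbb3 had summits about 18 kb downstream in all 3 lists, with a −log10 q of 83.1 in WT, at the start of Rpl41. The 154Q summit nearest Hras lay 16440 bp downstream, at the start of Rnh1. Members bound in another list also had summits outside it, at 4998 bp downstream of Junb and 13066 bp upstream of Ptpn11 in 154Q and at 15867 bp downstream of Grb2 in 154Q[V591A;S602D]. In significance the weakest calls were those of Igf1r in 154Q (1.36) and of Ptpn11 in WT (1.78).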

How the data were processed

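CIC CUT&RUN libraries of WT, 154Q, 154Q[V591A;S602D] and CIC KO cerebella were analysed from 3 deposited peak lists. As the study's methods and the submitters' processing notes state, the authors trimmed reads (Trimmomatic 0.36), aligned them to mm10 (GRCm38) with Bowtie2 2.3.4.1, kept fragments under 120 bp (SAMtools 1.10), removed blacklisted regions (bedtools 2.29.1), merged the libraries of each genotype and called peaks with MACS3 at a q-value of 0.05 against the merged CIC KO libraries. For WT and for 154Q[V591A;S602D] the deposited files give a score, the fold enrichment, −log10 p, −log10 q and the summit offset. The deposited 154Q list gives summits with −log10 q and is the one from which the authors removed peaks of more than 50% repeat sequence.

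Summits were assigned to GENCODE M21 protein-coding genes (gene body or 5 kb upstream) with Python 3.11.15, numpy 2.4.6 and scipy 1.17.1, and figures were drawn with matplotlib 3.10.9. A summit may count for several genes. Peaks were ranked within their list by their best −log10 q. Pileups were recovered as the whole number whose Poisson tail gave the deposited −log10 p within 0.02 (99.9% of WT and 99.7% of 154Q[V591A;S602D] summits), with exact 95% Poisson intervals that cover counting error only. Motifs were searched letter for letter within 50 bp of summits on both strands. The steps were tested on simulated data. Fragments under 120 bp favour factor footprints, and merging hides differences between mice.

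The members and the lists of other pathway genes were chosen with earlier results of these data known, and no test was made for the members. Every member with a peak is named with its lists, members in at least 2 lists, with a start-site summit of −log10 q of at least 10 or with an octamer are given with the rank, −log10 q and position of their strongest summit, members without a peak are named by step or, within 20 kb of a summit, as just outside the rule, and other pathway genes are named where all 3 lists hold them. Of 53 other pathway genes, 52 had a gene model. Alternatives were a repeat filter, a stricter q, equal list length, 3 other gene rules, best summits alone and, added after seeing the data, RefSeq gene models.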

Additional observations from a re-analysis of the deposited data

How the results depend on the processing

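The counts of bound members kept within 1.5 times their value in 27 of the 32 alternative results, and Fos and Egr1 made up the 2 members bound in all 3 lists under each alternative run. Some of the 27 could not change. The 154Q[V591A;S602D] list at equal length is the list itself, and repeats had already been removed from the 154Q list. All 5 counts that moved were of WT or 154Q. Summits with a −log10 q of at least 3 left 6 members in 154Q (4.45% of all genes), without Fgfr2, Igf1r, Grb2 and Rps6ka2. With each list reduced to its 918 best peaks, WT held 8 members (4.36% of all genes) and 154Q held 4 (4.22%), so that the counts of 22, 10 and 3 became 8, 4 and 3 at equal list length. Gene bodies alone gave 12 members in WT and 6 in 154Q (9.45% and 3.88% of all genes), since the promoter summits of Jun, Rasa1, Srf and Nf1 among others fell away. RefSeq gene models, chosen after seeing the data, lost Fgfr2. No paired analysis was possible because the libraries of each genotype were merged before peaks were called, and for the same reason no mouse could be left out.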
